A study of Mus musculus with 9 samples.

Results

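The genes of the cell cycle, of the E2F transcription factors that drive it and of mitosis were followed in the livers of mice that had received early-life pulsed antibiotic treatment (PAT). The group was a list of 37 gene symbols named for what the genes do, and 36 of them were measured among the 18193 genes of the arrays. Ccnb1 had no probe set that carries its symbol alone. Each gene was read at its brightest probe set by the mean of the 9 arrays, and a gene with a mean under 6 on the log2 scale is called dim, because values there carry more of the background of the array.

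Total RNA from the livers of female C57BL/6J mice was hybridized to Affymetrix mouse expression arrays, with 3 tylosin, 3 amoxicillin and 3 control arrays. Tylosin mice drank 0.333 mg/ml of the macrolide, for 50 mg/kg/day, and amoxicillin mice drank 0.167 mg/ml of the beta-lactam, for 25 mg/kg/day, in pulses on days 10 to 15, 28 to 31 and 37 to 40 of life, while control mice received no antibiotic. All 3 groups were moved to high-fat chow after the last pulse and were killed long after it, at 24 weeks by the sample labels and 22 weeks by the description of the series. The mice of a litter shared a treatment, and the litter of each array is not given, so litter and antibiotic cannot be told apart. Values are RMA log2 expression values, and the difference between group means on that scale is the log2 fold change. The groups were compared with limma, and a gene was called at an unadjusted p under 0.01 with an absolute log2 fold change over 0.5, the thresholds of the study's methods. Adjusted p-values are those of Benjamini and Hochberg over all 45037 probe sets. Except where probe sets were averaged or added, each difference between arrays was taken within the same probe set. Levels of different probe sets were ranked only to choose the brightest and to mark dim genes.

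Adult hepatocytes are mostly quiescent, and enter the cell cycle when liver mass is lost. Entry runs through cyclin D and cyclin E with their kinases, which inactivate the retinoblastoma family and free activating E2F factors such as E2F1 to switch on replication genes. The atypical factors E2F7 and E2F8 are repressors of the same targets and are known for their part in the polyploidy of hepatocytes. Genes of mitosis come on later, under the MuvB complex with B-MYB and FOXM1, which reaches promoters through the element called CHR, often beside CCAAT boxes bound by NF-Y. In bulk RNA, fewer cycling cells and less transcript per cell cannot be told apart.

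Promoters of 4 of these genes are shown because the values below turn on them, E2f8 and Cdc20 as the genes called, Cdk2 as one higher in every amoxicillin and every tylosin array than in the controls, and Mcm5, chosen after its values were seen, as a gene with a wide range. They are the 200 bases before the start of each gene, 5′ to 3′ along the gene, from RefSeq on GRCm38.p6. Capitals mark E2F letters (TTTCCCGC, TTTCGCGC, TTTGCCGC or TTTGGCGC), CCAAT and the CHR letters TTTGAA, each on either strand.
E2f8, chr7:48881597-48881796, minus strand: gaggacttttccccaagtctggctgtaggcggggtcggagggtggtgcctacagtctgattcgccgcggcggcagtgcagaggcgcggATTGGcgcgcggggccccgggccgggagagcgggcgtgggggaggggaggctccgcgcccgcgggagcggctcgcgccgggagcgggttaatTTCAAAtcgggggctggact
Cdc20, chr4:118437344-118437543, minus strand: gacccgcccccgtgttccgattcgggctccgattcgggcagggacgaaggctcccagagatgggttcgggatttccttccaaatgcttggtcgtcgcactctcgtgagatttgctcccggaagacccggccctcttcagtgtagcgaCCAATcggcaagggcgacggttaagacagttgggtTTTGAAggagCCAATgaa
Cdk2, chr10:128705052-128705251, minus strand: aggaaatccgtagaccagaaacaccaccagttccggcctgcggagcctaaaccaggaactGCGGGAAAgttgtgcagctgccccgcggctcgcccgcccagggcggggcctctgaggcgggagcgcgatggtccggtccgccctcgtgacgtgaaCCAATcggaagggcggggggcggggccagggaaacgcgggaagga
Mcm5, chr8:75109309-75109508, plus strand: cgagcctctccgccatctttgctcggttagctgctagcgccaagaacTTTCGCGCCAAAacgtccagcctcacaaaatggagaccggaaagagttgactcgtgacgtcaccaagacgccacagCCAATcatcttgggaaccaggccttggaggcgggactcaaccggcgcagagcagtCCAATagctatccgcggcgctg
E2f8 and Cdc20 each held CHR letters and CCAAT, and Cdk2 and Mcm5 each held E2F letters and CCAAT, with the 2 E2F matches of Mcm5 overlapping each other on opposite strands. In windows of 300 bases, 250 before and 50 after the start, 30 of the 37 genes had a promoter, with 31 promoters in all. E2F letters were in 22.6% of these 31, against 2.26% of all 32851 promoters. CCAAT was in 83.9%, against 37.4%, and CHR letters were in 41.9%, against 17.9%. The E2F letters stood in the promoters of 4 of 5 Mcm genes, and CHR letters in 4 of 6 promoters of the mitotic kinases and checkpoint and 4 of 5 of the chromosome and spindle genes. There was 1 overlap between matches of different motifs in the promoters of these genes. These matches describe letters only.

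Most of the group was dim. Of the 36 genes, 27 were dim (75%), against 58.6% of all genes. The other 9 were E2f8, Ccnd1, Ccnf, Cdk2, Mcm7, Pcna, Rrm1, Rrm2 and Tk1. All 7 mitotic kinase and checkpoint genes and all 6 chromosome and spindle genes were dim. In 15 of the 36 genes at least 2 arrays held the same value to 4 decimals, and for Mcm2, a subunit of the replicative helicase, and Kif20a, a kinesin of cytokinesis, 5 of the 9 arrays did. Such ties were not confined to dim genes, since Rrm1 had 4 arrays at the same value. Their share over all genes was not counted.

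With tylosin, 0 of 36 genes were called higher than in control mice and 2 were called lower, E2f8 and Cdc20. Of all genes, 1.01% passed as higher and 0.44% as lower. With amoxicillin, 0 were called higher and 0 lower, where 0.835% and 0.445% of all genes were called. Between tylosin and amoxicillin 0 were called in either direction, with 0.0715% of all genes called higher and 0.0385% lower. At an unadjusted p under 0.05 in limma, 5 genes passed with tylosin (13.9%, against 16.6% of all genes), 8 with amoxicillin (22.2%, against 15.5%) and 1 between the antibiotics (2.78%, against 3.13%). The smallest adjusted p of the group was 0.188 with tylosin, 0.246 with amoxicillin and 1 between the antibiotics. The median log2 fold change of the 36 genes was 0.06 with tylosin, -0.01 with amoxicillin and 0.11 for tylosin minus amoxicillin, beside medians of -0.01, -0.03 and 0.01 over all genes. Over all genes the medians depended on brightness. Dim genes had -0.07 with tylosin and -0.08 with amoxicillin, and the others had 0.07 and 0.06. The 27 dim genes of the group had 0.12 and -0.03, and the other 9 had 0.04 and 0.16. Both antibiotics were set against the same 3 control arrays.

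**Figure D1:**
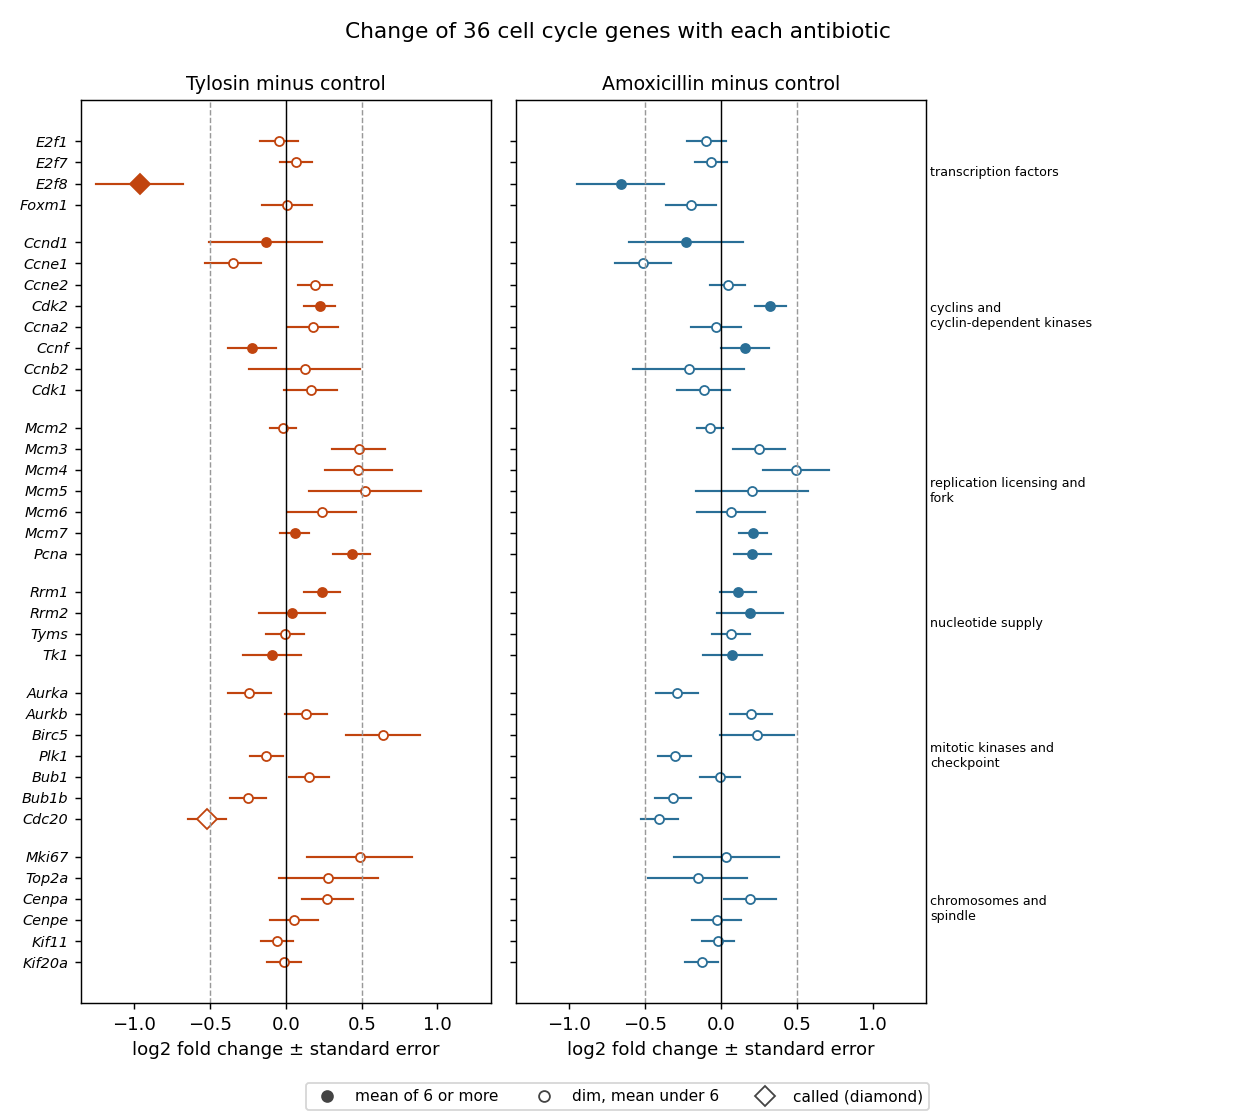
Log2 fold change (x axis) of each of the 36 genes by role, for tylosin minus control (left) and amoxicillin minus control (right), with bars of 1 standard error from limma; open symbols are dim genes, diamonds are called genes and dashed lines mark 0.5 in either direction. E2f8 at -0.97 and Cdc20 at -0.52 with tylosin are the only diamonds, and Birc5 lies farthest to the right at 0.64.

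Of the transcription factors, E2f8 was called lower with tylosin. E2f8 was 6.62, 6.12 and 5.78 in tylosin mice, 6.01, 6.35 and 7.08 in amoxicillin mice, and 7.33, 7.35 and 6.74 in control mice. All 3 tylosin arrays lay below all 3 control arrays, whereas amoxicillin replicate 3 lay among the controls. The mean was 6.18 ± 0.42 in tylosin mice and 7.14 ± 0.35 in control mice (SD, n = 3 each), and the log2 fold change was -0.97 (standard error 0.29, adjusted p = 0.214), or a fold of 0.512. With amoxicillin the mean was 6.48 ± 0.55 and the log2 fold change was -0.66 (adjusted p = 0.324), which did not meet the thresholds. The call was lost when tylosin replicate 2 or 3, or control replicate 1 or 2, was left out, with log2 fold changes of -0.94, -0.77, -0.87 and -0.86. A second E2f8 probe set, near the floor, had log2 fold changes of -0.04 with tylosin and -0.20 with amoxicillin, and did not separate the groups.

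The other 3 factors were dim and did not pass the test. E2f1, an activating E2F, had log2 fold changes of -0.04 with tylosin and -0.10 with amoxicillin, and E2f7, the partner of E2f8 in repression, had 0.07 and -0.07. Foxm1, the forkhead factor of mitotic genes, had 0.01 and -0.20. At the dimmest E2f1 probe set every PAT array lay below every control array, at -0.36 with tylosin and -0.20 with amoxicillin. The remaining E2f1 probe set had -0.07 and -0.15, with overlapping groups. The second Foxm1 probe set had -0.38 and -0.22, also with overlapping groups. Its dimmer ones had -0.01 and -0.01 with tylosin and -0.002 and 0.11 with amoxicillin. At their brightest probe sets, E2f1, E2f7 and Foxm1 each had their highest value of the 9 arrays in tylosin replicate 3. E2f8, at its brightest probe set, was lowest in that array.

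Among the cyclins and their kinases, 0 of 8 were called in either direction with either antibiotic. Ccnd1, cyclin D1, which links growth signals to entry into the cycle, was 9.03, 8.62 and 10.45 in tylosin mice, 9.10, 9.46 and 9.25 in amoxicillin mice and 9.30, 9.34 and 9.86 in control mice. Tylosin replicate 3 held the highest and tylosin replicate 2 the lowest of the 9 values, and the other 2 Ccnd1 probe sets placed these arrays in the same way. The SD of the tylosin mice was 0.96, against 0.31 in control mice (n = 3 each), and the log2 fold change was -0.13 (standard error 0.37, adjusted p = 0.888). Without tylosin replicate 3, Ccnd1 was called lower with tylosin, at -0.68.

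Cdk2, the kinase partner of cyclins E and A, was 6.43, 6.36 and 6.33 in tylosin mice, 6.51, 6.45 and 6.46 in amoxicillin mice and 5.95, 6.18 and 6.32 in control mice. All 6 PAT arrays lay above all 3 control arrays, with tylosin replicate 3 just above control replicate 3. The log2 fold change was 0.33 with amoxicillin (standard error 0.10, adjusted p = 0.247) and 0.22 with tylosin (adjusted p = 0.34), both under the threshold of 0.5. Ccnf, cyclin F, the substrate receptor of a ubiquitin ligase that acts on E2F factors and Rrm2, was 5.95, 6.28 and 6.48 in tylosin mice and 6.53, 6.75 and 6.58 in amoxicillin mice, against 6.33, 6.28 and 6.77 in control mice. The control arrays of Ccnf overlapped those of both antibiotics, and it was the 1 gene with an unadjusted p under 0.05 between tylosin and amoxicillin (log2 fold change -0.38, adjusted p = 1). Ccne1, cyclin E1, had a log2 fold change of -0.51 with amoxicillin (adjusted p = 0.277), beyond the fold threshold and short of the p threshold, and of -0.35 with tylosin. At its second, dimmer probe set it was 3.23, 3.37 and 3.44 in tylosin mice, 3.54, 3.40 and 3.44 in amoxicillin mice and 3.75, 3.89 and 3.72 in control mice. There all 6 PAT arrays lay below all 3 control arrays, and the log2 fold changes of -0.44 with tylosin and -0.33 with amoxicillin passed the unadjusted p threshold and were short of the fold threshold. The log2 fold changes of the other 4 genes, Ccne2, Ccna2, Ccnb2 and Cdk1, ran with tylosin minus control from 0.12 to 0.19. With amoxicillin minus control they were 0.04, -0.03, -0.21 and -0.11. Ccnb2, cyclin B2, had a wide control group, at 3.58, 5.22 and 3.87.

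The genes that license and carry the replication fork had the highest median of any role with tylosin, and were singled out after their values were seen. With amoxicillin the role median farthest from 0 was -0.29, that of the mitotic kinases and checkpoint genes. The median log2 fold change of the replication genes was 0.44 with tylosin and 0.21 with amoxicillin, and 0 of 7 were called in either direction. In each comparison 6 of 7 were above 0 (85.7%, against 46.7% of all genes with tylosin and 44.6% with amoxicillin). The 2 comparisons share their control arrays, so these counts are not separate observations. Pcna, the sliding clamp of DNA polymerase, was 9.30, 9.33 and 9.17 in tylosin mice, 9.27, 8.88 and 8.96 in amoxicillin mice and 8.95, 8.90 and 8.66 in control mice. All 3 tylosin arrays lay above the controls, and the amoxicillin arrays overlapped them. The mean of Pcna was 9.27 ± 0.08 in tylosin mice and 8.83 ± 0.16 in control mice (SD, n = 3 each), and the log2 fold change was 0.44 (standard error 0.12, adjusted p = 0.203), which passed the p threshold and was short of the fold threshold.

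The Mcm genes encode the 6 subunits of the helicase that is loaded at origins. Mcm4 was 5.39, 4.99 and 5.56 in tylosin mice, 5.76, 5.12 and 5.12 in amoxicillin mice and 4.99, 5.07 and 4.46 in control mice. Its amoxicillin arrays lay above the controls, and its difference was 0.49 on the log2 scale (standard error 0.22, adjusted p = 0.332), and its tylosin arrays overlapped them. Leaving out amoxicillin replicate 1 gave 0.28 for Mcm4, and leaving out control replicate 3 gave 0.30. Mcm7 was 7.67, 7.50 and 7.65 in tylosin mice, 7.88, 7.64 and 7.76 in amoxicillin mice and 7.47, 7.62 and 7.56 in control mice. The amoxicillin arrays of Mcm7 were again the higher ones, at 0.21 (adjusted p = 0.336), with 0.06 for tylosin. The other Mcm7 probe sets, also not dim, had -0.05, 0.10 and 0.20 with amoxicillin and -0.06, -0.17 and 0.02 with tylosin. None of them separated the groups. Mcm5 reached 6.28 in tylosin replicate 3, against 4.88 and 4.85 in the other tylosin mice, 5.54, 4.55 and 4.98 in amoxicillin mice and 4.88, 5.13 and 4.44 in control mice. The other 2 tylosin arrays lay within the range of the controls, and the log2 fold change was 0.52 with tylosin (standard error 0.37, adjusted p = 0.526), which became 0.05 without tylosin replicate 3 and 0.33 without control replicate 3. Mcm3 had 0.48 with tylosin (adjusted p = 0.267) at its brightest probe set, and 0.15, 0.33, -0.26 and -0.08 at its others. Mcm2 and Mcm6 had -0.02 and 0.24 with tylosin and -0.07 and 0.07 with amoxicillin. At their brightest probe sets Mcm3 and Mcm5 had 0.25 and 0.21 with amoxicillin.

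The median of these 7 genes moved with single arrays. Of the 7, 5 had their lowest value in control replicate 3, where 15.1% of all genes had theirs, and 3 had their highest in tylosin replicate 3. The median with tylosin was 0.07 without tylosin replicate 3, 0.29 without control replicate 3 and 0.12 when the probe sets of a gene were averaged. The median with amoxicillin was 0.09 without amoxicillin replicate 1, 0.12 without control replicate 3, 0.11 when the probe sets were averaged and 0.105 with probe sets not of the s or x type.

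Of the nucleotide supply genes 1 of 4 was dim, and 0 of 4 were called in either direction with either antibiotic. Tk1, thymidine kinase of the salvage pathway, was 7.29, 7.38 and 6.67 in tylosin mice, 7.48, 7.27 and 7.09 in amoxicillin mice and 7.35, 6.91 and 7.35 in control mice. The 3 groups of Tk1 overlapped, and its lowest value was in tylosin replicate 3. Rrm1 and Rrm2, the large and small subunits of ribonucleotide reductase, had log2 fold changes of 0.24 and 0.04 with tylosin and of 0.11 and 0.19 with amoxicillin. Tyms, thymidylate synthase, had -0.003 and 0.06.

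Of the mitotic kinases and checkpoint genes, 1 of 7 was called lower with tylosin and 0 with amoxicillin. Their median log2 fold change was -0.13 with tylosin and -0.29 with amoxicillin. With amoxicillin 28.6% of them were above 0, against 44.6% of all genes. All 7 were dim, and dim genes of the whole array also lay lower with amoxicillin, at a median of -0.08. Cdc20, the activator of the anaphase-promoting complex, was 4.76, 4.62 and 4.65 in tylosin mice, 4.53, 4.98 and 4.87 in amoxicillin mice and 5.25, 5.30 and 5.04 in control mice. All 6 PAT arrays lay below all 3 control arrays. The mean was 4.68 ± 0.07 in tylosin mice and 5.20 ± 0.14 in control mice (SD, n = 3 each), and the log2 fold change was -0.52 (standard error 0.12, adjusted p = 0.188), or a fold of 0.697. With amoxicillin it was -0.41 (adjusted p = 0.246). The probe set read here is dim and of a type, marked x, that may cross-hybridize. The call was lost when tylosin replicate 2 or control replicate 1 or 2 was left out, with log2 fold changes of -0.49, -0.49 and -0.47. The other 2 Cdc20 probe sets had log2 fold changes of 0.21 and -0.20 with tylosin, and in both control replicate 2 was the highest of the 9 arrays, at 5.67 and 4.88. Cdc20 was called at 1 of its 3 probe sets.

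Plk1, a kinase of mitotic entry and spindle assembly, was 4.70, 4.58 and 4.59 in tylosin mice, 4.52, 4.44 and 4.39 in amoxicillin mice and 4.58, 4.71 and 4.97 in control mice. Bub1b, the checkpoint protein BubR1, was 3.63, 3.89 and 3.94 in tylosin mice, 3.70, 3.79 and 3.77 in amoxicillin mice and 3.86, 4.11 and 4.24 in control mice. In both genes the amoxicillin arrays lay below the controls, at log2 fold changes of -0.31 (adjusted p = 0.271) and -0.32 (adjusted p = 0.285), and the tylosin arrays overlapped them. The other 2 Bub1b probe sets had -0.07 and 0.09 with amoxicillin and did not separate the groups, and the average of the 3 had -0.10. Plk1 was at -0.20 without control replicate 3. Birc5, survivin of the chromosomal passenger complex, had the largest positive log2 fold change of the 36 genes with tylosin, 0.64 (standard error 0.24, adjusted p = 0.28). With amoxicillin Birc5 had 0.24. It was 3.39, 3.71 and 4.26 in tylosin mice and 2.95, 3.61 and 2.88 in control mice, which overlap, and its log2 fold change was 0.40 without tylosin replicate 3. The kinase genes Aurka, Aurkb and Bub1 had -0.24, 0.13 and 0.15 with tylosin, and -0.29, 0.20 and -0.004 with amoxicillin.

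**Figure D2:**
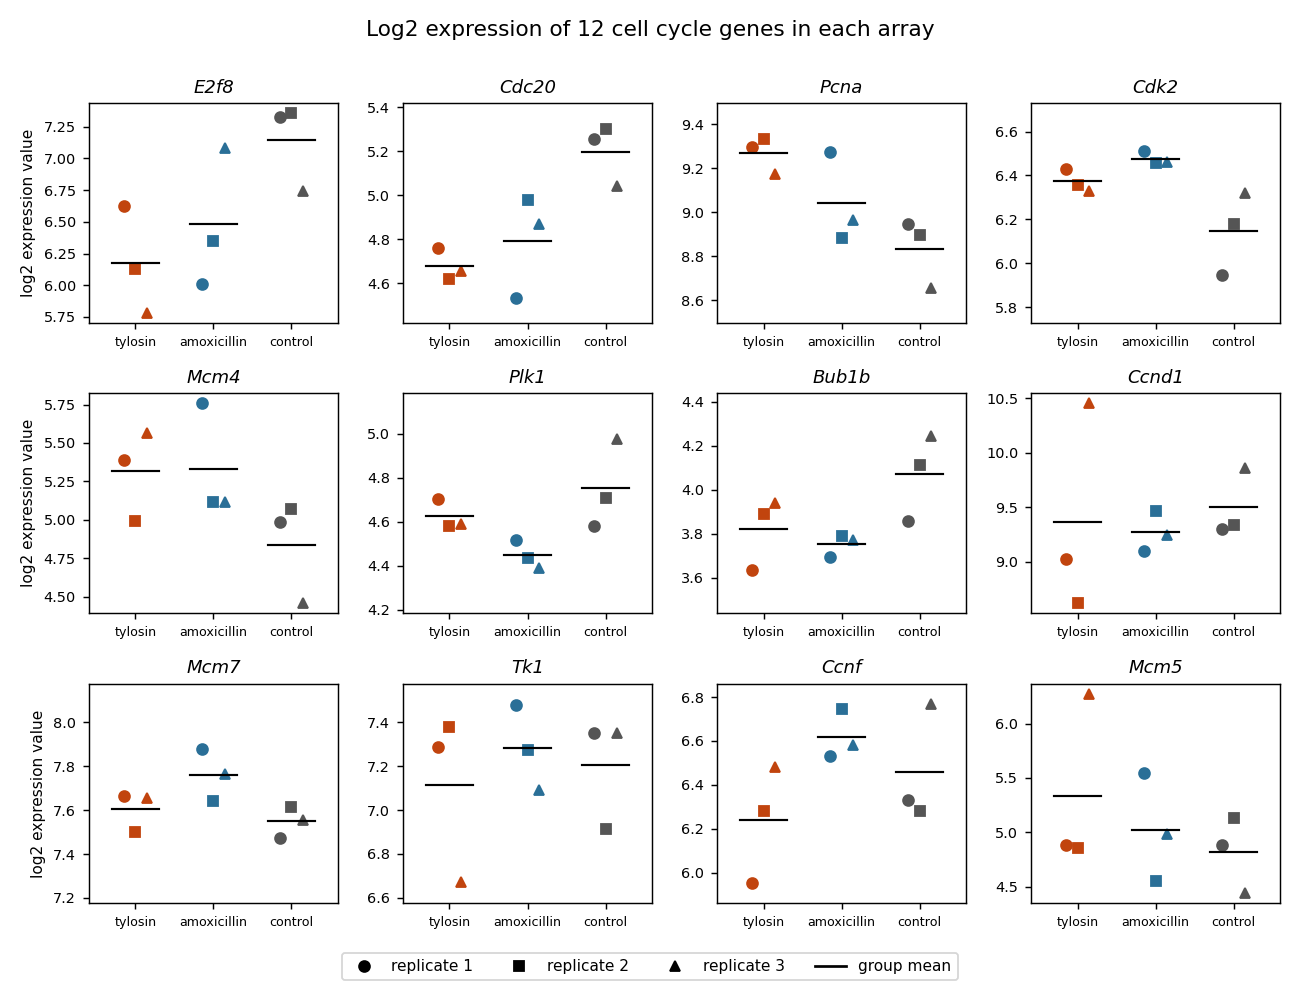
Log2 expression value (y axis) of 12 of the genes in each array, by group, with a symbol for each replicate number and a line at each group mean; each panel has its own scale. E2f8 and Cdc20 are lower and Pcna is higher in every tylosin array than in every control array, while Ccnd1 and Mcm5 are set apart by tylosin replicate 3 at 10.45 and 6.28.

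Of the chromosome and spindle genes, 0 of 6 were called in either direction with either antibiotic. Mki67, the proliferation antigen Ki-67, was 4.37, 4.50 and 5.25 in tylosin mice, 4.86, 3.72 and 4.18 in amoxicillin mice and 4.12, 4.84 and 3.69 in control mice. Top2a, the topoisomerase that separates sister DNA, was 4.63, 4.50 and 5.56 in tylosin mice, 4.81, 4.06 and 4.50 in amoxicillin mice and 4.22, 5.26 and 4.36 in control mice. Both genes were high in the same arrays, tylosin replicate 3 and then control replicate 2 or amoxicillin replicate 1, and their groups overlapped at these probe sets. At a second, dimmer Top2a probe set all 6 PAT arrays lay below all 3 control arrays. Its log2 fold changes were -0.33 with tylosin and -0.43 with amoxicillin, short of the fold threshold. The third Top2a probe set had -0.07 and -0.26, with overlapping groups. At the brightest probe sets the log2 fold changes of Mki67 and Top2a were 0.04 and -0.15 with amoxicillin. With tylosin they were 0.49 (standard error 0.35) and 0.28 (standard error 0.33). Leaving out tylosin replicate 3 or control replicate 3 gave 0.22 for Mki67, and leaving out control replicate 2 gave 0.80. For Top2a it ran from -0.05 without tylosin replicate 3 to 0.60 without control replicate 2. The centromere genes Cenpa and Cenpe and the kinesin genes Kif11 and Kif20a had 0.27, 0.06, -0.06 and -0.01 with tylosin. With amoxicillin they had 0.19, -0.03, -0.02 and -0.13.

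Counted over all roles, 2 genes were higher in every tylosin array than in every control array, where 8.21% of all genes were, and 2 were lower, where 9.15% were. With amoxicillin 4 genes were higher in every array, where 9.52% of all genes were, and 3 were lower, where 11.4% were. These were Cdk2, Mcm4, Mcm7 and Aurkb on the higher side and Cdc20, Plk1 and Bub1b on the lower. Set against those shares, neither count over the 36 genes stood out.

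Single arrays stood out in these genes. Tylosin replicate 3 held the highest value of the 9 arrays for 14 of the 36 genes (38.9%), where it did so for 13% of all genes, and for 12 of the 27 dim genes (44.4%). The median over the 36 genes of the value minus the control mean was 0.17 in that array, against 0.03 in tylosin replicate 2 and -0.003 in tylosin replicate 1. Control replicate 3 held the lowest value for 9 genes (25%, against 15.1% of all genes).

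**Figure D3:**
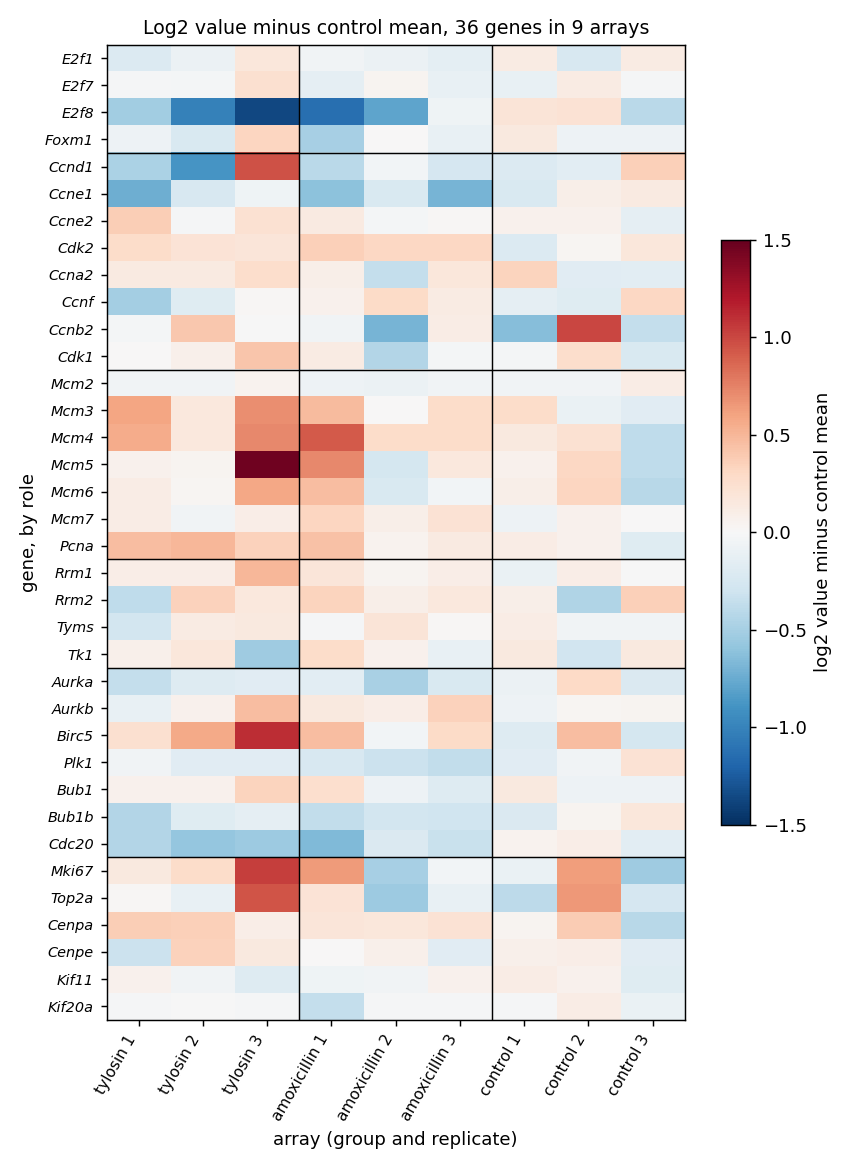
Log2 value minus the control mean (colour) of the 36 genes (rows, by role, with lines between roles) in the 9 arrays (columns). The column of tylosin replicate 3 is darkest red in Mcm5, Birc5, Mki67, Top2a and Ccnd1, while the row of E2f8 is blue in all 3 tylosin arrays.

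**Figure D4:**
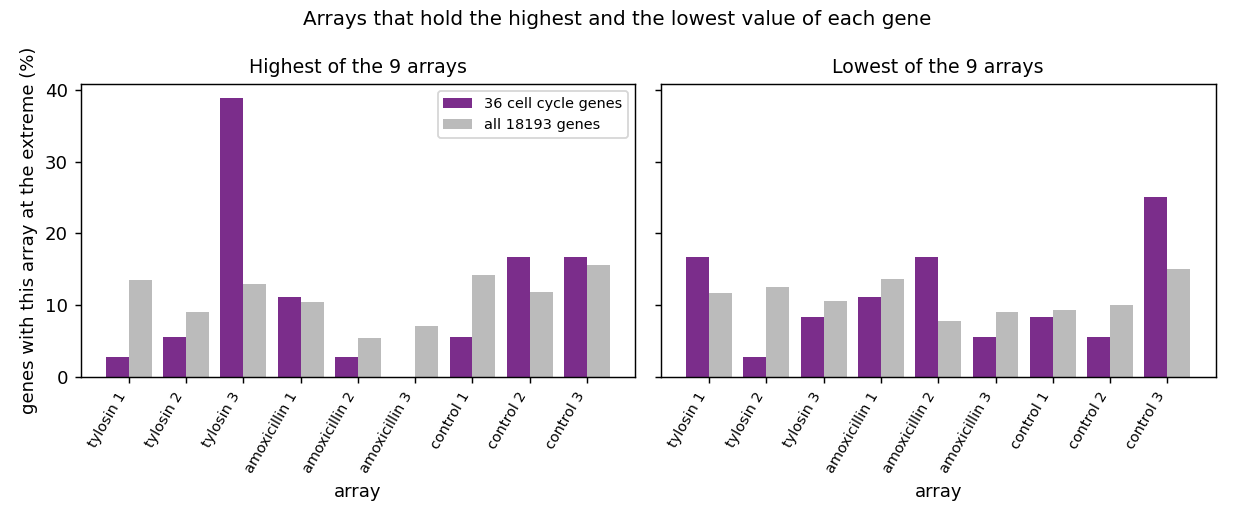
Share (%) of the 36 genes (purple) and of all 18193 genes (grey) with their highest value (left) or lowest value (right) in each of the 9 arrays. Tylosin replicate 3 holds the highest value of 38.9% of the cell cycle genes and 13% of all genes.

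Markers of other cell types also stood apart in tylosin replicate 3, in both directions. The summed level of 7 markers of Kupffer cells and macrophages, the log2 of their added linear values, was 12.9 there, against 11.7 to 12.4 in the other 8 arrays, with 5 of 7 highest there and 0 of 7 dim. The other 2, Clec4f at 7.50 and Vsig4 at 9.40, both receptors of Kupffer cells, were at their lowest of the 9 arrays there, against 9.20 to 9.66 and 9.99 to 10.52 elsewhere. For 7 lymphocyte markers, 6 of them dim, it was 9.24 there and 7.98 to 8.57 in the other 8 arrays, with 4 of 7 highest there. Ptprc, the leukocyte antigen CD45 and the 1 marker of that list that was not dim, was 8.83 there, while the T cell gene Cd3e was 5.76 there, below the 5.87 to 6.18 of the control arrays. Smooth muscle markers stood at 9.28 in amoxicillin replicate 1 and 9.48 in tylosin replicate 2, against 7.38 to 7.78 in the other arrays. In the same 2 arrays 10 markers of the intestinal mucosa, 7 of them dim, summed to 12.02 and 11.93. They summed to 11.21 to 11.73 in the other 7, and 8 of 10 were highest in amoxicillin replicate 1. Fabp2, the brightest of them, was not raised in the 2 arrays, at 11.03 and 11.13, against 10.90 to 11.62 elsewhere. Reg3b was 10.18 and 9.72, and was also 7.75 in tylosin replicate 1, against 2.67 to 3.15 elsewhere. In the 2 arrays 4 dim cholangiocyte markers summed to 7.81 and 7.28, against 6.19 to 6.37. Epcam was 7.10 and 6.48, against 3.78 to 4.83 elsewhere, and Krt19 was 5.645 and 4.90, against 3.88 to 4.26. Krt7 and Sox9 were highest in control arrays. The summed level of 4 markers of erythroid precursors was 8.07 to 8.36 in tylosin arrays. In amoxicillin arrays it was 7.76 to 8.16 and in control arrays 7.97 to 8.01. These markers went both ways with tylosin. Tfrc, the transferrin receptor, was called higher at 0.68, Klf1 had 0.34, Alas2 -0.35 and the dim Epb42 -0.06. With amoxicillin Alas2 had -0.51. Hepatocyte markers were at 16.8 to 16.9 in all 9 arrays, and the difference between 3′ and 5′ probe sets of Actb ran from 1.21 in tylosin replicate 3 to 1.73 in tylosin replicate 2. The part of these in the results above was not tested. Without tylosin replicate 2 and amoxicillin replicate 1 together, E2f8 was at -0.94 and Cdc20 at -0.49, neither called, and Mcm3 and Mcm4 were called higher with tylosin, each at 0.64.

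Of 87 other measured genes of the cycle, 63 of them dim, 2 were called higher with tylosin and 1 with amoxicillin, with 0 called lower by either, beside the 1.01% and 0.835% of all genes called higher. An unadjusted p under 0.05 in limma was reached by 16 with tylosin (18.4%, against 16.6% of all genes) and 14 with amoxicillin (16.1%, against 15.5%). Tfdp2, a DP partner with which E2F factors bind DNA, was 6.89, 6.81 and 6.55 in tylosin mice and 6.51, 6.05 and 6.07 in control mice (log2 fold change 0.54, standard error 0.15, adjusted p = 0.199). Cdca8, borealin of the same complex as Birc5, was 4.23, 4.27 and 4.39 in tylosin mice, 4.30, 4.12 and 4.59 in amoxicillin mice and 3.12, 4.12 and 3.62 in control mice. Its log2 fold change was 0.67 with tylosin (adjusted p = 0.23) and 0.71 with amoxicillin (adjusted p = 0.24), at dim levels. The 7 inhibitors of cyclin-dependent kinases, which hold cells out of the cycle, had 0 called in either direction, with medians of -0.05 with tylosin and 0.10 with amoxicillin. The median of all 87 genes was 0.09 with tylosin and 0.02 with amoxicillin.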

How the data were processed

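Liver RNA of 9 mice was measured on Affymetrix arrays. The deposited values are log2 expression values that the authors normalized with RMA in the affy package. Versions of both were not given in the sources used here. Of 45101 probe sets, 64 manufacturer's controls were left out. Genes came from the annotation of the platform, in which 34945 of the 45037 probe sets carried 1 symbol, 932 several and 9160 were unnamed. The groups were fitted together with limma 3.58.1 in R 4.3.3, which was tested on simulated data. The members and the lists were chosen with earlier results of these data known. Values per array are given for members called in any comparison, for members whose antibiotic arrays all lay beyond the controls with an absolute log2 fold change over 0.3, and for the 6 brightest. Other members and probe sets named with values, such as Mcm5 and Birc5, were added after their values were seen. The labels number the replicates only, so p-values measure the spread between these samples. Same-numbered arrays were not paired, since the numbers are not stated to pair samples. Of the 9 same-numbered pairs, 2 had a residual correlation over 0.1 (range -0.25 to 0.15). Amoxicillin replicate 1 and tylosin replicate 2, of different numbers, had 0.26, so these correlations do not decide whether arrays were paired. Depth has no meaning for arrays, whose number limits the precision. Figures were drawn with matplotlib 3.10.9.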

Additional observations from a re-analysis of the deposited data

How the results depend on the processing

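Of the 2 genes called lower with tylosin, 0 passed an adjusted p under 0.05, 0 a log2 fold change over 1, 0 when the probe sets of a gene were averaged, 0 without amoxicillin replicate 1 and tylosin replicate 2 together, and 0 after the filter on dim probe sets, which left 10 of the 36 genes. The count was 1 with a probe set that is not of the s or x type, 1 with array weights and 1 with median centring. With each array left out in turn it ran from 0 to 2. The 0 genes called higher with tylosin became 2 without amoxicillin replicate 1 and tylosin replicate 2 together, and ran from 0 to 1 over single arrays left out (Mcm3 without control replicate 1 or tylosin replicate 2, Birc5 without control replicate 2 or tylosin replicate 1).

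With the replicate block, 1 gene was called lower with tylosin, Cdc20, since E2f8 no longer passed the p threshold, and 1 was called lower with amoxicillin, Ccne1.

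The 0 genes called lower with amoxicillin were also 1 when only the groups compared were fitted, and ran from 0 to 1 over single arrays left out (Ccne1 without amoxicillin replicate 2 or tylosin replicate 1, E2f8 without amoxicillin replicate 3). The median log2 fold change of the group was 0.14 with amoxicillin and -0.13 for tylosin minus amoxicillin with the filter on dim probe sets, and ran from 0.0074 to 0.17 with tylosin over single arrays left out. The cause of these changes was not tested. Quantile normalization and a trended and robust variance kept both calls. The call of E2f8 with tylosin was kept in 10 of 21 alternatives and lost in 11, and that of Cdc20 was kept in 11 of 20 and lost in 9. Dim signal limits what can be read for 27 of the 36 genes.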
